A study of Bos taurus with 18 samples.

Results

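The 8 genes CDKN1A, CCNG1, MDM2, BAX, BCL2L1, MCL1, CASP9 and GADD45A, which are targets of the transcription factor p53 or genes of the mitochondrial route of apoptosis, were followed in bovine blastocysts made by in vitro fertilisation. They were taken by their symbol in the array's probe annotation. All 8 were present among the 14543 genes tested, with 16 of the array's 43794 probes. CDKN1A, MDM2 and BAX had 1 probe each, CCNG1 and GADD45A had 2, and BCL2L1, MCL1 and CASP9 had 3. Each gene is described first by its brightest probe, and the other 8 probes are given after that.

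The embryos of all 6 groups came from slaughterhouse ovaries, were sired by frozen semen of a single bull and developed under reduced oxygen in co-culture with VERO, a cell line of monkey kidney. The day of insemination counted as day 0. The groups day6, day7 and day8 held blastocysts collected when the blastocoel (the fluid-filled cavity) had formed on that day. The groups day6+1 and day7+1 were kept for 1 extra day in culture after the cavity had formed, and day6+2 for 2 extra days. Each group was measured on 3 one-colour arrays, which the labels call biological replicates. How many embryos each array stands for, and whether its replicates were separate cultures, is not stated, so the p-values measure no more than the spread between these samples. The RNA was that of the blastocyst, in which a smaller share of cells of one kind and less RNA per cell cannot be told apart, and it was amplified before labelling. No genotype, agent or sex of the embryos is given, and the sequences of the probes were not used here.

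The protein p53 is switched on by DNA damage and other stress, and MDM2, itself a p53 target, marks p53 for degradation and so closes a feedback loop. Among the targets of p53, CDKN1A (p21) blocks cyclin-dependent kinases and halts the cell cycle, GADD45A acts in growth arrest and DNA repair, and CCNG1 (cyclin G1) recruits a phosphatase that acts on MDM2. In the mitochondrial route of apoptosis BAX opens the outer mitochondrial membrane, BCL2L1 and MCL1 hold it closed, and CASP9 is the initiator caspase that the apoptosome then activates. Apoptosis of single cells is known in blastocysts of cattle and other mammals, and it removes cells of both the inner cell mass and the trophectoderm, the outer layer.

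The median raw signal of an array lay between 157 and 302 intensity units, the local background between 14 and 21, and between 72.0% and 81.1% of the probes were above the negative control spots. Correlations between arrays of a group ran from 0.963 to 0.981. The first principal component, with 19.1% of the variance, separated replicate 1 of day6+1, replicate 1 of day7 and all 3 arrays of day8 from the rest. The brightest probes of the 8 genes correlated with it by -0.23 to 0.33, and none belonged to the set of 373 features that followed it with a correlation over 0.8. All 16 probes passed the filter on dim probes, and the 8 brightest were above the negative controls on all 18 arrays. Precision is limited by the number of arrays. Levels are log2 intensities after normalization and are compared within a probe only, and differences are log2 differences with the standard error of the fit (n = 3 arrays a group).

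Day6 had the lowest mean level in 5 of the 8 genes, CCNG1, MDM2, BAX, CASP9 and GADD45A, where 18.2% of all features had their lowest mean. Day8 had the highest mean in 5 of the 8, CDKN1A, CCNG1, MDM2, MCL1 and CASP9, where 17.4% of all features had their highest. With its groups put in the order of their means, a gene's neighbouring groups overlapped in every case but one, the step of BAX from day6 to day7.

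**Figure D1:**
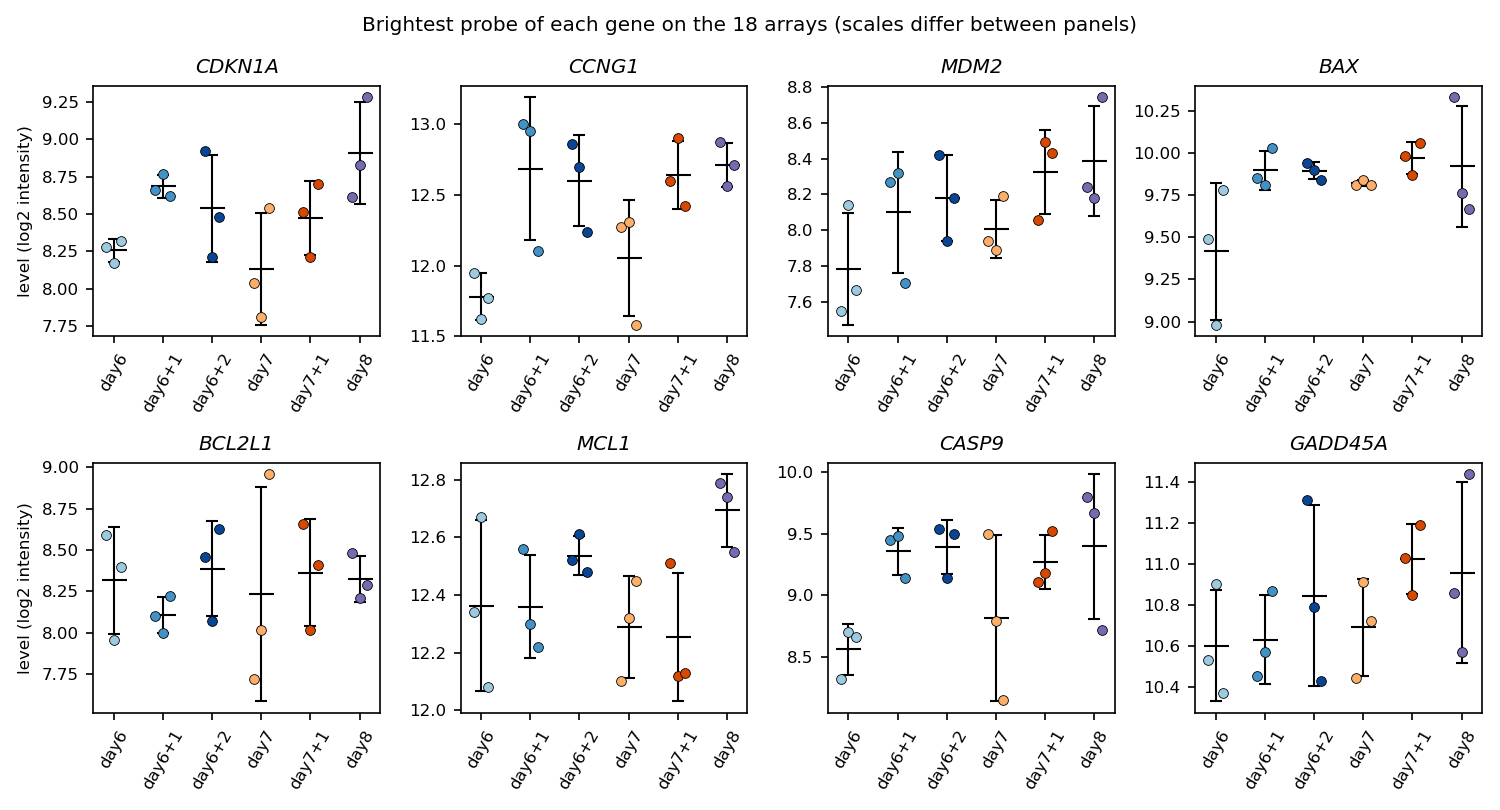
Level of the brightest probe of each gene (vertical axis, log2 intensity) on the 3 arrays of each group (points), with the group mean and its SD (lines); the vertical scale differs between panels. CCNG1 and CASP9 had their lowest means in day6, with the 3 day6 arrays of CCNG1 at 11.62 to 11.95, while the groups of BCL2L1 overlapped throughout. The lowest single array of both genes was day7 replicate 3 (11.58 and 8.15).

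Of the p53 targets, CCNG1 was the only one of the 8 genes to pass any test at the threshold of 0.05 after adjustment. Its level was 11.95, 11.62 and 11.77 on the day6 arrays and 12.27, 12.31 and 11.58 on the day7 arrays. It was 12.87, 12.56 and 12.71 in day8. With extra culture it was 13.00, 12.95 and 12.10 in day6+1, 12.86, 12.70 and 12.24 in day6+2, and 12.60, 12.90 and 12.42 in day7+1. All 3 day6 arrays thus lay below every array of day6+1, day6+2, day7+1 and day8, and day7 replicate 3 was the lowest of the 18.

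CDKN1A, the cell cycle inhibitor, was at 8.28, 8.17 and 8.32 in day6, at 8.04, 7.81 and 8.54 in day7 and at 8.61, 8.83 and 9.28 in day8. It was at 8.66, 8.77 and 8.62 in day6+1, 8.92, 8.21 and 8.48 in day6+2, and 8.51, 8.21 and 8.70 in day7+1. The arrays of day8 lay above those of day6 and day7 without overlap, and so did the arrays of day6+1.

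MDM2, the ligase that restrains p53, was at 7.55, 8.14 and 7.67 in day6, 7.94, 7.89 and 8.19 in day7 and 8.24, 8.18 and 8.74 in day8. It was at 8.27, 8.32 and 7.71 in day6+1, 8.42, 7.94 and 8.18 in day6+2, and 8.06, 8.49 and 8.43 in day7+1. The day8 arrays lay above the day6 arrays by a margin that rests on day6 replicate 2, and MDM2 overlapped between the other groups.

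GADD45A, the repair and growth arrest gene, had group means from 10.60 ± 0.27 (SD, n = 3) in day6 to 11.02 ± 0.17 in day7+1. Its single arrays ran from 10.37 in day6 to 11.44 in day8, and its groups overlapped in all 10 pairwise comparisons.

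BAX, the pore-forming protein of the mitochondrial membrane, was at 9.49, 8.98 and 9.78 in day6, and day6 was the one group that stood below its neighbour in the order of means. It was at 9.81, 9.84 and 9.81 in day7, 9.85, 9.81 and 10.03 in day6+1, and 9.94, 9.90 and 9.84 in day6+2. It was at 9.98, 9.87 and 10.06 in day7+1 and 10.33, 9.76 and 9.67 in day8. The mean of day6 rests on replicate 2, the lowest of the 18 arrays, while replicate 3 lay close under the day7 arrays.

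The 2 genes that oppose BAX came next. BCL2L1 (BCL-XL) had group means from 8.11 ± 0.11 in day6+1 to 8.39 ± 0.29 in day6+2, and its groups overlapped throughout, with the widest spread in day7 (7.72, 8.02 and 8.96). MCL1 was at 12.34, 12.67 and 12.08 in day6, 12.10, 12.32 and 12.45 in day7 and 12.79, 12.74 and 12.55 in day8. It was at 12.51, 12.12 and 12.13 in day7+1, the lowest group, and the means of day6+1 and day6+2 were 12.36 ± 0.18 and 12.53 ± 0.06. The day8 arrays of MCL1 lay above those of day7 and day7+1 without overlap.

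CASP9, the initiator caspase, was at 8.32, 8.70 and 8.66 in day6, 9.50, 8.79 and 8.15 in day7 and 9.80, 9.67 and 8.72 in day8. It was at 9.45, 9.48 and 9.14 in day6+1, 9.54, 9.14 and 9.50 in day6+2, and 9.11, 9.18 and 9.52 in day7+1. The day6 arrays lay below those of all other groups but day7, and day7 replicate 3 and day8 replicate 3 were near the level of day6.

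The trend per extra day asked what a further day of culture changed with the formation day held equal, in a linear fit over the 18 arrays. CCNG1 rose by 0.45 ± 0.12 per day (95% confidence interval 0.20 to 0.70), a 1.36-fold rise, with an adjusted p = 0.0348 in limma. The fit assumes a constant step, while CCNG1 differed by 0.91 ± 0.25 in day6+1 against day6 and by -0.08 ± 0.25 in day6+2 against day6+1. CCNG1 was the 1 of 8 genes to pass, where 3.76% of all features passed (2.43% of all features higher and 1.33% lower). CASP9 differed by 0.42 ± 0.13 per day and did not pass (adjusted p = 0.0751), nor did MDM2 (0.22 ± 0.09), BAX (0.22 ± 0.09), CDKN1A (0.18 ± 0.11) or GADD45A (0.16 ± 0.10). BCL2L1 and MCL1 differed by 0.05 and 0.06, with intervals from -0.18 to 0.28 and from -0.12 to 0.24. Unadjusted, 4 of the 8 had a p under 0.05, against 13.5% of all features. The median slope was 0.20 for the 8 genes and -0.01 for all features. CCNG1 did not pass without day6 replicate 1, 2 or 3, day6+2 replicate 1 or 2, or day7+1 replicate 2 (slopes of 0.40 to 0.46, adjusted p of up to 0.137), nor with the mean of its 2 probes (0.27, adjusted p = 0.161), with plain background subtraction or with arrays centred on their medians. CASP9 passed without day7 replicate 1 (0.47, adjusted p = 0.0421).

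The first extra day was examined in day6+1 against day6. CCNG1 differed by 0.91 ± 0.25 (adjusted p = 0.0770), CASP9 by 0.80 ± 0.29, BAX by 0.48 ± 0.20 and CDKN1A by 0.43 ± 0.22, and these 4 did not overlap between the groups, where 15.2% of all features did not. None of the 8 passed in limma, where 1.25% of all features did. The unadjusted p lay under 0.05 for 3 of them and for 9.87% of all features. MDM2 differed by 0.31 ± 0.22, GADD45A by 0.03 ± 0.24, MCL1 by -0.01 ± 0.18 and BCL2L1 by -0.21 ± 0.26. Slides were read from a number in the deposited names, which no label calls the slide. On slide 4, the one that held arrays of both groups, with 1 array of each, CCNG1 differed by 0.33 and CASP9 by 0.48. Without day6+1 replicate 3, the lowest of its group for CCNG1, that gene differed by 1.20 and passed (adjusted p = 0.0199). That array was the day6+1 array on slide 4, so without it no slide held both groups.

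Over both extra days, in day6+2 against day6, CASP9 differed by 0.83 ± 0.29 (adjusted p = 0.138), CCNG1 by 0.82 ± 0.25 (adjusted p = 0.0723) and BAX by 0.48 ± 0.20, and these 3 did not overlap, where 18.1% of all features did not. Again none of the 8 passed, against 3.59% of all features, and 3 had an unadjusted p under 0.05, against 13.1%. MDM2, CDKN1A and GADD45A differed by 0.39, 0.28 and 0.24. The intervals of the death-opposing genes reached from -0.47 to 0.61 for BCL2L1 and from -0.22 to 0.55 for MCL1. By the brightest probes all 8 differences were above 0, with a median of 0.34 against -0.02 for all features. The other BCL2L1 probes differed by -0.24 and -0.22 here, where the brightest gave 0.07. Within slide 1, with 2 arrays of each group, CCNG1 differed by 1.00, CASP9 by 0.83 and BAX by 0.68. Within slide 4, with 1 of each, they differed by 0.47, 0.84 and 0.06. CCNG1 passed in this comparison without day6+1 replicate 3, day6+2 replicate 3 or day7 replicate 3, with an adjusted p = 0.0354 at the lowest. Between the 2 groups kept in culture, day6+2 and day6+1, the 8 differences ran from -0.15 to 0.28, with 0 of 8 and 0% of features past the threshold. Before adjustment 0 of the 8 had a p under 0.05, against 3.38% of features, and 0 were without overlap, against 8.44%.

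**Figure D2:**
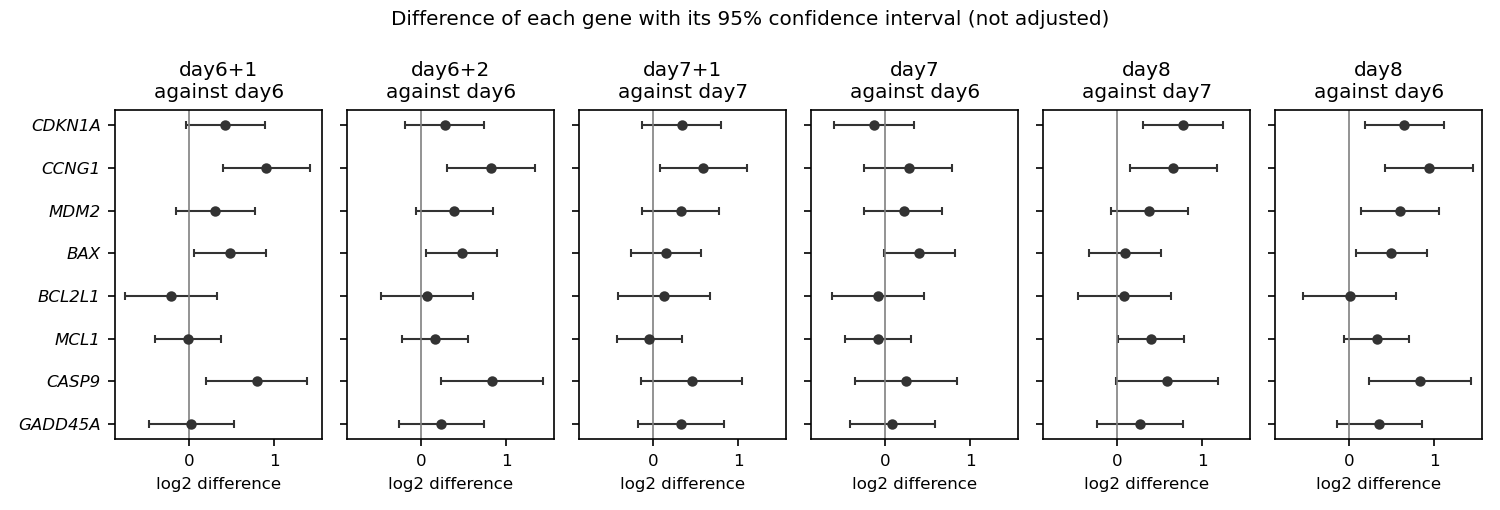
Log2 difference of each gene (horizontal axis) in 6 of the comparisons, as the estimate of limma's fit (point) with its unadjusted 95% confidence interval (bar); the vertical line is 0. CCNG1 lay highest in day6+1 against day6 and day8 against day6, at 0.91 and 0.94, and the intervals of BCL2L1 included 0 in all 6 panels.

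The extra day after formation on day 7 was examined in day7+1 against day7. CCNG1 differed by 0.59 ± 0.25 (adjusted p = 0.618), CASP9 by 0.46 ± 0.29 and CDKN1A by 0.34 ± 0.22. MDM2 and GADD45A each differed by 0.33. Without day7 replicate 3 CASP9 differed by 0.13 and CCNG1 by 0.35, and without day7 replicate 1 CASP9 differed by 0.80. Leaving out 1 array, the difference of CDKN1A ran from 0.18 to 0.55. CCNG1 and BAX did not overlap between the groups, although BAX differed by no more than 0.15 ± 0.20, where 10.6% of all features did not overlap. None of the 8 and 0.0175% of all features passed (0.0146% higher and 0.00292% lower), and CCNG1 alone had an unadjusted p under 0.05, against 7.15% of features. The interaction, which compared this extra day with the one after formation on day 6, gave values from -0.34 to 0.34 for the 8 genes, none of which passed (adjusted p of 0.951 or more), where 0.00584% of all features did. Before adjustment 0 of the 8 had a p under 0.05, against 6.73% of features. For CCNG1 it was -0.32 ± 0.35, with an interval from -1.04 to 0.41.

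The day of formation was examined first in blastocysts collected as the cavity formed. In day8 against day7 CDKN1A differed by 0.77 ± 0.22 (adjusted p = 0.193), CCNG1 by 0.66 ± 0.25 and MCL1 by 0.40 ± 0.18, each without overlap, where 12.6% of all features did not overlap. CASP9 differed by 0.59 ± 0.29. None of the 8 passed in limma, as against 0.0175% of all features (0.0146% higher and 0.00292% lower), while the first 3 had an unadjusted p under 0.05, against 9.12%. On slide 5, with 1 array of each group, CDKN1A differed by 0.74, CCNG1 by 1.13, MCL1 by 0.10 and BCL2L1 by -0.68.

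In day7 against day6 the differences ran from -0.12 for CDKN1A to 0.40 ± 0.20 for BAX, the one gene without overlap, where 12.9% of features did not overlap. None passed (0.289% of all features did), and none had an unadjusted p under 0.05, against 9.77% of features.

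Over the whole span, in day8 against day6, CCNG1 differed by 0.94 ± 0.25 (adjusted p = 0.0568), CASP9 by 0.84 ± 0.29, CDKN1A by 0.65 ± 0.22, MDM2 by 0.60 ± 0.22 and BAX by 0.50 ± 0.20. These 5 had an unadjusted p under 0.05, as did 13.0% of all features, and none passed after adjustment, where 1.48% of all features did. CCNG1, CASP9, CDKN1A and MDM2 did not overlap, against 17.5% of features. GADD45A and MCL1 differed by 0.36 and 0.33, and BCL2L1 by 0.01, with an interval from -0.53 to 0.55. The median was 0.55 for the 8 genes and -0.02 for all features. Without day8 replicate 3 CASP9 differed by 1.17 and passed (adjusted p = 0.0330), and CCNG1 passed without day6+1 replicate 1 or 3 or day7 replicate 1 or 3 (adjusted p of 0.0320 at the lowest). The comparisons with day6+1, day6+2, day7 and day8 share the 3 day6 arrays. No slide held arrays of both day8 and day6, or of both day7 and day6, so no within-slide value exists for these comparisons.

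The trend per formation day, at equal extra culture, was 0.37 ± 0.12 for CCNG1 (adjusted p = 0.196), 0.32 ± 0.13 for CASP9 and 0.29 ± 0.09 for MDM2. It was 0.22 for CDKN1A, BAX and GADD45A, 0.11 for MCL1 and 0.05 for BCL2L1. None of the 8 passed, against 0.251% of all features, while 5 had an unadjusted p under 0.05, against 11.3%.

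Blastocysts of equal age but different day of formation were compared in 3 ways. In day7 against day6+1, CCNG1 differed by -0.63 ± 0.25, CDKN1A by -0.55 ± 0.22 and CASP9 by -0.55 ± 0.29. The other 5 genes lay between -0.10 and 0.13. CDKN1A alone did not overlap (9.65% of features did not), 2 of the 8 had an unadjusted p under 0.05 (5.25% of features), and 0 of 8 and 0% of features passed. Slide 3 held 2 arrays of each group, and within it CCNG1 differed by -0.68, CDKN1A by -0.79 and CASP9 by -0.32.

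In day8 against day7+1, MCL1 differed by 0.44 ± 0.18 without overlap, where 13.0% of features did not overlap, and CDKN1A by 0.43 ± 0.22. The other 6 lay between -0.07 and 0.13. None of the 8 and 0% of features passed, with 1 of the 8 under an unadjusted p of 0.05 against 8.13% of features. The 0 features became 196 without day7 replicate 1, with 0 of the 8 still. Within slide 2, with 2 arrays of each group, MCL1 differed by 0.46, CDKN1A by 0.36 and CASP9 by 0.59. In day8 against day6+2 all 8 overlapped, as did all but 15.6% of features, and the differences ran from -0.06 to 0.37. None passed or had an unadjusted p under 0.05, against 0.572% and 10.5% of features.

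The other probes followed the brightest of their gene in part. None of the 8 passed in any of the 13 comparisons and trends. The other CCNG1 probe correlated with the brightest by 0.41 over the 18 arrays. It was at 7.24, 7.41 and 7.23 in day6, 8.02, 7.89 and 7.48 in day6+1, and 7.27, 8.11 and 7.25 in day6+2. It thus lay above day6 on all 3 day6+1 arrays, and on day6+2 it was high on replicate 2 and near day6 on the remaining arrays. It differed by 0.51 ± 0.24 in day6+1 against day6 (unadjusted p = 0.0437, adjusted p = 0.491), by 0.25 ± 0.24 in day6+2 against day6, and had a slope of 0.10 ± 0.11 per extra day. In day7+1 against day7 it differed by -0.02, where the brightest probe gave 0.59. In day8 against day7 it differed by 0.03, where the brightest gave 0.66, and in day8 against day6 by 0.29, where the brightest gave 0.94. Its slope per formation day was 0.07, and that of the brightest 0.37.

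For CASP9, the probe EMBV3_15406 correlated with the brightest by 0.53 and had a slope of 0.24 ± 0.11 per extra day (adjusted p = 0.352). The probe EMBV3_02441 correlated by 0.29, had a slope of 0.09 ± 0.11 and was above the negative controls on 12 of the 18 arrays. In day8 against day7 EMBV3_15406 differed by -0.04 and EMBV3_02441 by 0.02, where the brightest CASP9 probe gave 0.59. In day8 against day6 they differed by 0.42 and 0.12, where the brightest gave 0.84. For MCL1, the probe EMBV3_00650 correlated with the brightest by 0.36 and was at 12.59, 12.04 and 12.24 in day6, 12.52, 12.13 and 12.10 in day6+1, 11.51, 11.95 and 11.54 in day7 and 12.26, 12.28 and 12.03 in day8. Its day7 arrays lay below those of the other 3 without overlap, but overlapped those of day7+1 (11.89, 12.10 and 11.71). It differed by -0.62 ± 0.21 in day7 against day6 (unadjusted p = 0.00756, adjusted p = 0.281), where the brightest probe gave -0.08. It differed by -0.58 ± 0.21 in day7 against day6+1, where the brightest gave -0.07, and by 0.52 ± 0.21 in day8 against day7, where the brightest gave 0.40. The other MCL1 probe correlated by 0.55, that of GADD45A by 0.32, and those of BCL2L1 by 0.17 and -0.11. In day6+2 against day6 the 8 other probes differed by -0.24 to 0.49, and 6 of them had the sign of the brightest probe.

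**Figure D3:**
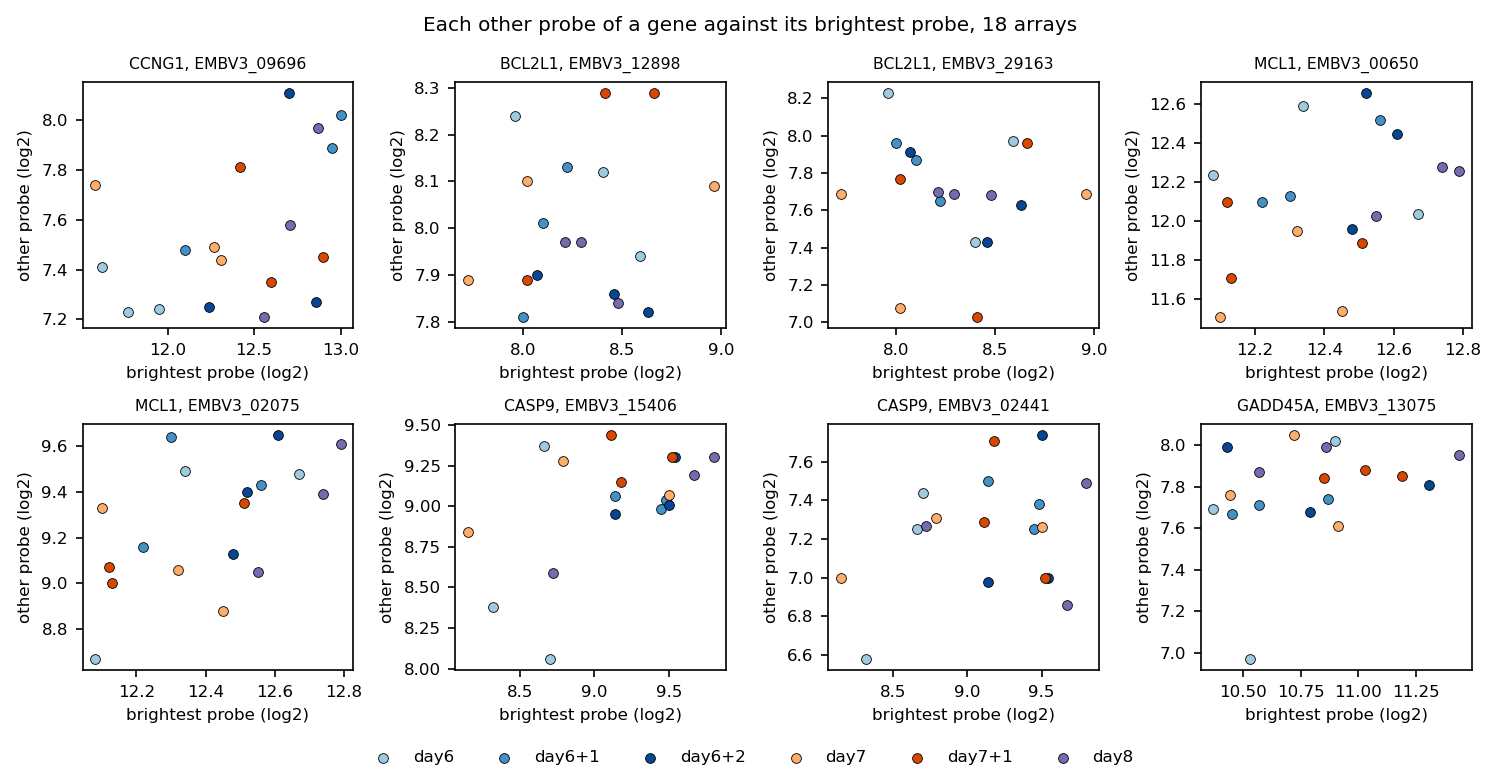
Level of each other probe of a gene (vertical axis, log2) against the brightest probe of the same gene (horizontal axis, log2) on the 18 arrays, coloured by group; the scales differ between panels. The CASP9 probe EMBV3_15406 and the MCL1 probe EMBV3_02075 followed the brightest probe most closely, with r of 0.53 and 0.55, and the BCL2L1 probes showed little relation to it.

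Among themselves, the brightest probes of the 8 genes correlated by -0.31 to 0.69 over the 18 arrays, with a median of 0.24 over the 28 pairs. The highest were CCNG1 with CASP9 (0.69), CDKN1A with MDM2 (0.61), and MDM2 with CCNG1 and with GADD45A (0.56 each). These points share arrays, groups and amplification, and are a description. The genes most like CCNG1 over the 18 arrays were SVIL, an actin-binding protein (r = 0.90), and AS3MT, an arsenic methyltransferase (0.87). Those most like CASP9 were CYLD, a deubiquitinase (0.91), and SH3BGRL2 (0.90). For CDKN1A they were the ubiquitin ligase RNF115 (0.85) and the ubiquitin-conjugating enzyme UBE2H (0.80), and for MDM2 they were PLXDC2 (0.79) and UBE2H again (0.78). For BAX they were CYP11A1, the enzyme that starts steroid synthesis (0.84), and PDIA3, a protein disulfide isomerase (0.83). The highest values for BCL2L1 (LPXN and CDC34, 0.75 and 0.74), MCL1 (NAA50 and LIN52, 0.75 and 0.73) and GADD45A (BTC and ITIH3, 0.71 each) were lower.

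Further genes of the pathway were taken from 8 lists with 109 genes, of which 89 were tested. The others were not analysed here. In day6+2 against day6, 5 of the 89 rose and 2 fell, where 2.31% of all features were higher and 1.28% lower. The median difference was 0.03 for the 89 genes and -0.02 for all features. The genes past the threshold came from 5 of the 8 lists. Of 22 cell cycle and repair targets of p53, 2 rose (SFN and BTG2) and 0 fell. Of 9 death-promoting targets, TP53I3 rose and EI24 fell. Of 10 death receptor genes TNFRSF1A rose, of 6 inhibitors of apoptosis BIRC3 rose, and of 13 genes of p53 and its regulators CHEK1 fell. None of 8 death-opposing and 11 death-promoting members of the BCL2 family and 10 caspase and apoptosome genes passed.

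SFN (14-3-3 sigma) is a p53 target that holds cells in G2 and is also made by epithelia. It was at 11.35, 10.48 and 11.04 in day6 and at 12.65, 12.68 and 12.64 in day6+2, and rose by 1.70 ± 0.24 (adjusted p = 0.000187). It also rose by 1.42 ± 0.24 in day6+1 against day6 (adjusted p = 0.00315), by 1.54 ± 0.24 in day7 against day6 (adjusted p = 0.00646) and by 1.13 ± 0.24 in day8 against day6 (adjusted p = 0.0200). All 3 day6 arrays lay below the 15 others. With the slide as a fixed block the last 3 comparisons did not pass, with an adjusted p of 0.261, 0.458 and 0.671, and the last differed by 0.65, while with the slide as a random block all 3 passed. Without day6 replicate 2, the lowest array, SFN differed by 0.89 in day8 against day6 and by 1.30 in day7 against day6 and did not pass in either (adjusted p = 0.133 and 0.0733). It did not pass in day8 against day6 without day8 replicate 1 or 2 either, or in day7 against day6 with only the 6 arrays compared.

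TP53I3, a p53 target that makes a quinone oxidoreductase, was at 8.22, 8.00 and 8.41 in day6, 9.47, 9.47 and 9.04 in day6+1 and 10.05, 9.60 and 9.10 in day6+2. It rose by 1.12 ± 0.27 over the first extra day (adjusted p = 0.0437) and by 1.37 ± 0.27 over both (adjusted p = 0.00388). All arrays of both cultured groups lay above day6. So did the arrays with no extra culture, at 9.48, 9.56 and 9.02 in day7 and 9.19, 9.96 and 8.66 in day8, and those of day7+1. In day6+2 against day6 TP53I3 passed whichever array was left out, and differed by 1.71 within slide 1 and by 0.69 within slide 4. In day6+1 against day6 it passed in 8 of the 18 fits with 1 array left out, and did not without any 1 of the 3 day6 or the 3 day6+1 arrays, among others. It also did not pass there in 4 of the 12 alternatives, the slide as a fixed and as a random block among them, with an adjusted p of up to 0.388.

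TNFRSF1A, a receptor of tumour necrosis factor, was at 7.32, 6.67 and 7.58 in day6, where replicate 2 was not above the negative controls, and at 9.37, 8.90 and 8.25 in day6+2. It rose by 1.65 ± 0.34 (adjusted p = 0.00528), and by 1.44 ± 0.34 in day8 against day6 (adjusted p = 0.0335). In day6+2 against day6 it did not pass without day6 replicate 2 (1.39, adjusted p = 0.0551), and it differed by 2.14 within slide 1 and by 0.67 within slide 4. In day8 against day6 it did not pass without day6 replicate 1 or 2 or day8 replicate 1 or 2, with an adjusted p of up to 0.187, or with the slide as a fixed block (2.10, adjusted p = 0.246), and passed with it as a random block.

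BTG2, an antiproliferative p53 target, and BIRC3, an inhibitor of apoptosis, rose by 0.91 ± 0.23 and 0.79 ± 0.21 in day6+2 against day6 (adjusted p = 0.0306 and 0.0365). BTG2 was at 10.37, 9.68 and 10.04 in day6 and at 11.16, 10.87 and 10.77 in day6+2. BIRC3 was at 9.69, 10.10 and 10.22 in day6 and at 10.48, 10.95 and 10.94 in day6+2. The groups did not overlap for either gene, and each passed in 14 of the 18 fits with 1 array left out. BTG2 did not pass without day6 replicate 2 or 3 or day6+2 replicate 1 or 2, and BIRC3 not without day6 replicate 1 or 2 or day6+2 replicate 2 or 3.

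Of the genes that fell, EI24, a p53 target of the endoplasmic reticulum membrane, was at 12.99, 13.15 and 12.80 in day6 and at 12.07, 12.32 and 11.96 in day6+2, and fell by 0.86 ± 0.19 (adjusted p = 0.0106). It did not pass without day6 replicate 2 or day6+2 replicate 3, or with each array centred on its median (-0.70, adjusted p = 0.0868). CHEK1, the checkpoint kinase that acts when DNA replication stalls, was at 11.85, 12.10 and 11.99 in day6 and at 11.18, 11.32 and 11.30 in day6+2. It fell by 0.71 ± 0.19 there (adjusted p = 0.0430) and by 0.80 ± 0.19 in day8 against day6 (adjusted p = 0.0414). All 15 arrays outside day6 lay below the 3 day6 arrays. CHEK1 passed in 8 and 9 of 12 alternatives in these comparisons, and not with centring on the median, plain background subtraction or the slide as a fixed block, with an adjusted p of up to 0.348 and 0.351. With the slide as a random block it passed in both. It passed in 9 and 10 of the 18 fits with 1 array left out, and in neither comparison without day6 replicate 1, 2 or 3.

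**Figure D4:**
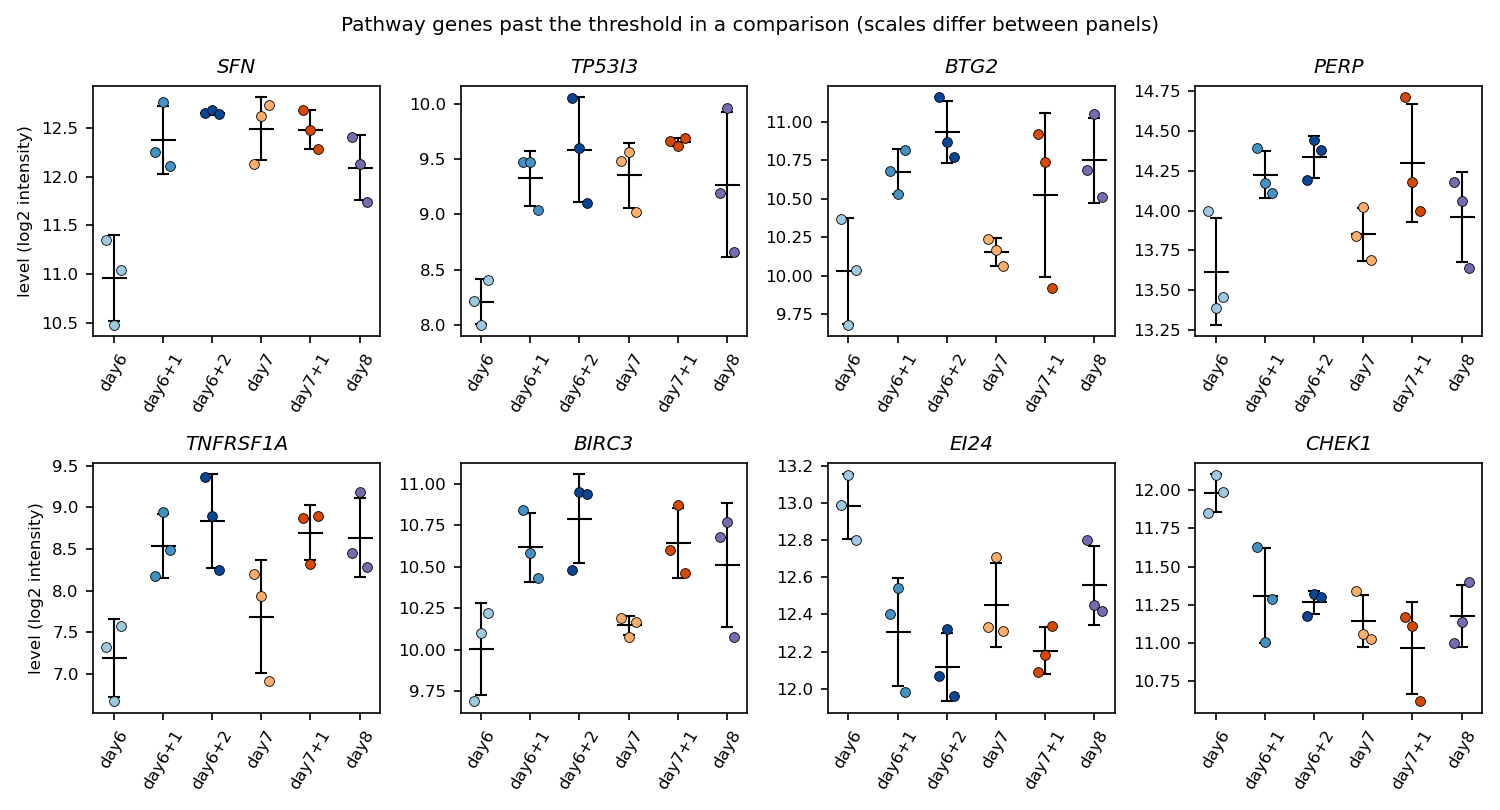
Level (vertical axis, log2 intensity) of the 8 genes of the pathway lists that passed in at least 1 comparison or trend, on the 3 arrays of each group (points), with the group mean and its SD (lines); the vertical scale differs between panels. SFN and TP53I3 were lowest on the 3 day6 arrays, and EI24 and CHEK1 had their highest means in day6.

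Per extra day, 6 of the 89 genes rose and 1 fell, where 2.43% and 1.33% of all features did. TNFRSF1A rose by 0.86 ± 0.16 per day (adjusted p = 0.00179), SFN by 0.68 ± 0.15, TP53I3 by 0.61 ± 0.14, BTG2 by 0.44 ± 0.11 and BIRC3 by 0.42 ± 0.09. The mean of SFN was 10.96 in day6, 12.38 in day6+1 and 12.66 in day6+2. It was 12.5 in day7 and 12.48 in day7+1, so SFN did not rise over the extra day after formation on day 7. The interaction of SFN, at -1.44 ± 0.34, did not pass. EI24 fell by 0.39 ± 0.09. PERP, a p53 target of the desmosome, rose by 0.38 ± 0.09 (adjusted p = 0.0202), but its other probe had a slope of -0.28 and the mean of its probes one of 0.05 (adjusted p = 0.958). Of these 7 genes, TNFRSF1A passed whichever array was left out. BIRC3 did not pass without day6 replicate 1, and the remaining 5 did not without day6 replicate 2, with an adjusted p of 0.0637 to 0.115. BTG2 and PERP also did not pass without day6 replicate 3 or day6+2 replicate 2, nor BTG2 without day6+2 replicate 1.

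In day6+1 against day6, SFN and TP53I3 were the 2 of 89 that rose, with 0.867% of all features higher, and 0 fell, with 0.385% of all features lower. In day7 against day6, SFN rose and 0 fell (0.236% and 0.0525% of all features), and CHEK1, next by p, differed by -0.84 ± 0.19 (adjusted p = 0.0754). In day8 against day6, 2 rose and 1 fell (0.948% and 0.531% of all features).

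In the remaining comparisons 0 of the 89 passed, and the smallest p-values were these. In day8 against day7 they were those of APAF1, the scaffold of the apoptosome, which differed by 0.93 ± 0.26, and MDM4, a partner of MDM2, by 0.78 ± 0.23 (adjusted p = 0.185 and 0.197). In day8 against day7+1 APAF1 differed by 1.12 ± 0.26 (adjusted p = 0.148), and the DNA damage kinase ATM by 0.57 ± 0.19. APAF1 was at 8.80, 8.73 and 8.07 in day7, 8.49, 7.74 and 8.80 in day7+1 and 9.47, 9.81 and 9.12 in day8, so the day8 arrays lay above both other groups. In day7+1 against day7 TNFRSF1A differed by 1.02 ± 0.34 and BIRC3 by 0.50 ± 0.21, and in day7 against day6+1 the kinase PLK3 by 0.65 ± 0.21 (0.06 by its other probe) and TNFRSF1A by -0.85 ± 0.34. TNFRSF1A was not above the negative controls on day7 replicate 3 (6.92). With 1 array left out it differed by 0.63 to 1.27 in day7+1 against day7 and by -1.11 to -0.47 in day7 against day6+1. In day8 against day6+2 API5 and SFN differed by -0.50 ± 0.18 and -0.56 ± 0.24. API5 correlated by -0.69 with the first principal component, on which the day8 arrays stood apart, and the part of that component was not tested. In day6+2 against day6+1 GADD45B and BAG4 differed by 0.72 ± 0.30 and -0.51 ± 0.22. BAG4 was not above the negative controls on day6+2 replicate 2 (6.51), and with 1 array left out it differed by -0.66 to -0.24. The interaction of SFN was -1.44 ± 0.34 (adjusted p = 0.146) and that of BCL2L2 -0.62 ± 0.26, with -0.21 to 0.02 by its other probes. Per formation day CHEK1 differed by -0.39 ± 0.10 (adjusted p = 0.0826) and TNFRSF1A by 0.61 ± 0.16 (adjusted p = 0.0844).

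The summed markers of the trophectoderm and of the epiblast set day6 apart from the other groups. The sums were made on the linear scale before the log2, so the brightest genes weigh most in them. The summed level of 12 trophectoderm markers was 17.14 to 17.53 (log2) on the day6 arrays, where PAG11 was not above the negative controls on any array, and 17.71 to 18.09 on the arrays of the other groups. The summed level of 8 epiblast markers was 14.86 to 15.05 in day6 and 14.13 to 14.83 in the other groups. Their part in the differences of CCNG1, CASP9, SFN and the other genes between day6 and the later groups was not tested. Markers of the hypoblast (6 of 7 tested, summed level 16.04 to 16.47), cumulus cells (6 of 9 tested, summed level 10.19 to 10.89), kidney epithelium (4 of 7, 9.38 to 9.98) and fibroblasts (5 of 6, 11.07 to 12.14) were measured as well, and their part was not tested either. For cumulus cells the day6 range overlapped those of all other groups. For fibroblasts it was 11.07 to 11.48, below day7 (11.63 to 11.87), day7+1 (11.49 to 12.14) and day8 (11.68 to 12.05). For kidney epithelium it was 9.71 to 9.76, above day8 (9.38 to 9.49). For the hypoblast it was 16.25 to 16.36, above day6+2 (16.15 to 16.23). The remaining groups of these lists overlapped day6.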

How the data were processed

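Total RNA of bovine blastocysts was amplified in rounds with T7 RNA polymerase and labelled with Cy3, per the labels' protocols, and hybridised to 18 Agilent arrays of a bovine embryo design. Per the file headers, the scans at 532 nm give each spot's median foreground and median background intensity, uncorrected. The authors' deposited table is in log2 units; it matched the log2 of background-subtracted, quantile-normalized scans with a median gap of 0.000687, and column medians were 7.76 to 7.77. R 3.2.4 and limma 3.28.5 are named for 9 of the samples in the submitters' processing notes; other steps are not given in the sources used here.

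Here R 4.3.3 with limma 3.58.1 was used for background correction (normexp with an offset of 50) and for quantile normalization. Spots marked by the scanner as set aside were missing values. Probes above the 95th percentile of the negative controls on at least 3 of the 18 arrays were kept (39986 probes, 91.3%). The brightest probe stood for its gene, which gave 34265 features: 14543 genes and 19722 probes with no symbol. Gene symbols come from the array's annotation and can be old. Group means over all 18 arrays gave 10 pairwise comparisons and an interaction; a model with formation day and extra days as numbers gave 2 trends. The tests were limma's moderated tests with Benjamini-Hochberg adjustment over all features and a threshold of 0.05. The fit was tested on simulated data.

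The members and gene lists were chosen with earlier results of these data known. Named were all 8 genes, in each comparison up to 8 list genes past the threshold (or, with fewer than 2 such genes, the 2 of lowest p), and the 2 genes most correlated with each member. Slides were taken from a number in the deposited names, and no label says that this number is the slide. By it, 4 slides held 4 arrays each and the fifth held 2. No slide held both groups of day7+1 against day7, day7 against day6, day8 against day6 or day8 against day6+2. In these comparisons the groups were compared across slides only. Same-numbered replicates were checked for pairing by the correlation of their deviations from the group means, and all 3 exceeded 0.1 in day6+2 against day6+1 (0.172, 0.114 and 0.234) and in day7 against day6+1 (0.451, 0.106 and 0.235). Alternatives were another background correction and scaling, median centring, no filter, the mean of a gene's probes, every probe as a feature, the authors' table, slide or replicate number as a block, a robust variance model, only the arrays compared, leaving out day6+1 replicate 1 and day7 replicate 1, and leaving out each array. Within-slide values for day7 against day6+1, day8 against day7 and day8 against day7+1 were chosen after seeing the data.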

Additional observations from a re-analysis of the deposited data

How the results depend on the processing

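Of the 8 genes, the count past the threshold in the trend per extra day was 1 (CCNG1) and became 0 with plain background subtraction (scaled to the 75th percentile), with arrays centred on their medians and with gene values averaged over probes, and 2 (CCNG1 and CASP9) with the slide as a fixed block and without day6+1 replicate 1 and day7 replicate 1. With 1 array left out it ran from 0 to 2. The slope of CCNG1 was 0.27 to 0.49 over the 11 alternatives and passed in 8. In day6+2 against day6 the count was 0, but 2 with the slide as a fixed block and with only the arrays compared, 1 with the replicate block and 1 with the robust variance model, and 0 to 1 with 1 array left out. In day8 against day6 it was 0, but 1 (CCNG1) with the replicate block, the robust model, only the arrays compared, and without the 2 arrays named above, and 0 to 1 with 1 array left out. In day6+1 against day6 it was 0, but 1 with the replicate block and 0 to 1 with 1 array left out. In the other 9 comparisons, the interaction and the trend per formation day among them, it was 0 in every alternative run. The correlations of same-numbered replicates all exceeded 0.1 in day6+2 against day6+1 and day7 against day6+1 alone, which does not show that samples were paired. In day7 against day6+1 the highest, 0.451, was that of the replicate 1 arrays, which both stood apart on the first principal component. In these comparisons the replicate block left the count at 0. The block changed no other call of the 8 genes than those of CCNG1 given here. The causes of these changes were not tested.

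Over all features, 1229 passed in day6+2 against day6, of which 790 were higher; with each array centred on its median 929 of 1140 were higher. Per extra day the split was 831 of 1288, and 792 of 1030 with that centring. Plain background subtraction moved the median over all features to -0.13 in day6+1 against day6 and to 0.16 in the interaction. Leaving out day6 replicate 2 gave 695 features in day6+2 against day6 and leaving out day6+2 replicate 2 gave 703, and per extra day it was 672, 814 and 806 without day6 replicate 2, day6 replicate 1 and day6+2 replicate 2. The other counts of features, and so the shares printed beside the 8 genes, moved more. Day6+1 against day6 went from 429 to 123 without day6+1 replicate 2, 129 without day6 replicate 2 and 29 with the slide as a fixed block. Day8 against day6 went from 507 to 42 without day6 replicate 2, 86 and 93 without day8 replicate 1 and 2, and 1 with the fixed block. Day7 against day6 went from 99 to 10 without day6 replicate 2 and 4 with the fixed block. Day8 against day6+2 went from 196 to 1 without day6+2 replicate 3, 555 without day7 replicate 1 and 1 with the fixed block. Without day7 replicate 1, day8 against day7 went from 6 to 335 and day8 against day7+1 from 0 to 196. The trend per formation day went from 86 to 1 without day6 replicate 2 or day8 replicate 1, and the interaction from 2 to 70 without day7 replicate 3. The number of arrays, 3 a group, limits what could be detected.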
